A study of Mus musculus with 48 samples.

Results

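The collagen genes are the 43 genes encoding collagen chains that were matched by Ensembl identifier among the 36854 genes of the count table, and all 43 were found. They fall into 11 fibrillar genes, 6 type IV genes of basement membranes and 26 genes of other types. Counts came from bulk poly(A) RNA-seq of 48 sarcomas of the mouse hind limb, in 8 groups set by tumour kind, radiation dose and antibody. Primary tumours arose where Adeno-Cre was injected into the gastrocnemius of p53FL/FL mice aged 6 to 10 weeks, and 300 µg of the carcinogen MCA was injected after it. Allografts grew from 50000 cells of the single line 402230, given with matrigel into that muscle of syngeneic mice, so all 16 allografts share 1 origin while the 32 primary tumours arose separately. All mice had the 129/SvJae background. At about 150 mm3, each mouse received 200 µg of muDX400, a murine anti-PD-1 antibody, or of an isotype control, and then at once 0 or 20 Gy to the tumour-bearing limb. Tumours were taken 3 days later. Each combination of dose and antibody held 4 allografts and 8 primary tumours, each with an identification number of its own.

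A collagen molecule is a trimer of alpha chains wound into a triple helix, folded in the endoplasmic reticulum by prolyl and lysyl hydroxylases and the chaperone Serpinh1. Fibrillar collagens (types I, II, III, V, XI, XXIV and XXVII) are trimmed outside the cell and packed into banded fibrils cross-linked by lysyl oxidases, while type IV chains form the sheet-like network of basement membranes. The remaining types include the beaded filaments of type VI, the FACITs that sit on fibril surfaces (IX, XII, XIV, XVI, XIX, XX and XXII), the multiplexins XV and XVIII of basement membrane zones, short-chain network collagens (VIII and X) and membrane-spanning chains. In soft-tissue sarcomas of this kind, the tumour cells and the fibroblasts of the host can both make fibrillar collagen.

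The gene structure separates the fibrillar genes from the type IV genes. Between 41.2% and 55% of the coding exons of the 11 fibrillar genes were exactly 54 bases long (median 46.3%), against 2.1% to 5.7% in the 6 type IV genes. In the genes of other types the share ran from 0% to 44.4% (median 7.5%) and overlapped both. The type IV genes lie in head-to-head pairs that are transcribed away from each other. The annotated starts of Col4a1 and Col4a2 on chromosome 8 overlapped by 22 bases, those of Col4a4 and Col4a3 on chromosome 1 lay 71 bases apart, and those of Col4a6 and Col4a5 on the X chromosome lay 1308 bases apart. Sequence is shown for the Col4a6 and Col4a5 starts, because Col4a5 fell after 20 Gy in the allografts and Col4a6 is its neighbour, and for the short gap between Col4a4 and Col4a3, whose transcripts were the least abundant of the family. The sequences come from RefSeq promoter windows on GRCm38.p6, 5′ to 3′ on the strand of the gene. Capitals mark a match, on either strand, to the GC box (GGGCGG or CCGCCC) or the CCAAT box (CCAAT or ATTGG). The first is the 250 bases before the Col4a6 start, chrX:141474077-141474326 on the minus strand, the second is the 216 bases before the Col4a5 start, chrX:141475169-141475384 on the plus strand, and the third is the 71 bases between Col4a4 and Col4a3, chr1:82586850-82586920, read on the plus strand.
Col4a6: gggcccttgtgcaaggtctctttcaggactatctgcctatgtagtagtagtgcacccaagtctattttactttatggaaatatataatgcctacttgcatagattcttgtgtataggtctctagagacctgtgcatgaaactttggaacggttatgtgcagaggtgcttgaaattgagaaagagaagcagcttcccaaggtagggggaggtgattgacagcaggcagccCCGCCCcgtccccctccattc
Col4a5: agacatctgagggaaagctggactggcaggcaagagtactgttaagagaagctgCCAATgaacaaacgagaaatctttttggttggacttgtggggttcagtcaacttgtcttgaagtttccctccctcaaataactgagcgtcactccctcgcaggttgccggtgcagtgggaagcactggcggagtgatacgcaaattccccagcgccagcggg
Col4a4-Col4a3: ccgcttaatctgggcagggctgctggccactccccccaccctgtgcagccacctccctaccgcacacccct
The GC content was 47.6% for Col4a6, 52.3% for Col4a5 and 69.0% for the Col4a4 to Col4a3 gap, and the gap held none of the letters searched. A GC box lay in 32.7% of all 32851 promoter windows of 250 bases and in 21 of the 37 windows of collagen genes. The CCAAT box lay in 33.8% of all windows and in 12 of the 37, and a TATA box (TATAAA or TTTATA) in 12.4% and in 5 of the 37. The 37 windows belonged to the 34 members that the promoter table held.

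Sequencing depth was 31810461 to 54008259 counts per tumour, and no 2 of the 48 columns were identical. Of the 8 mesenchymal markers, 7 exceeded 1 CPM (TMM-scaled CPM, the unit of every level below unless RPKM is named) in every tumour, and none of the 6 keratinocyte markers did. The summed level of 14 skeletal muscle markers ran from 18.3 to 93467 CPM, and 2 primary tumours given 20 Gy stood highest, replicate 4 with anti-PD-1 and replicate 4 with isotype (replicate numbers follow the order of deposit and only name tumours). Another tumour, primary replicate 8 with 20 Gy and anti-PD-1, held the highest level of 14 of the 43 collagen genes. In 3 allografts, replicate 3 of both 0 Gy groups and of the 20 Gy isotype group, Col2a1 exceeded 10 CPM. In bulk tumours, fewer cells of a type and less RNA per cell cannot be told apart.

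Collagen transcripts made up 0.534% to 7.54% of all counts (median 1.81%), and Col1a1, Col1a2 and Col3a1 alone supplied 46.4% to 76.7% of the collagen counts. Levels between genes are compared per kilobase of the principal transcript (RPKM after TMM scaling). Col3a1, the single chain of type III fibrils, had the highest mean over the 48 tumours with 1120.2 RPKM, followed by Col1a2 with 733 and Col1a1 with 729.8, the chains of type I collagen. The type VI chains Col6a1 and Col6a2, at 221 and 203 RPKM, and the type IV chains Col4a1 and Col4a2, at 190.0 and 127.1 RPKM, came next in the order, with Col5a2 (146 RPKM) between Col4a1 and Col4a2. The neighbours Col1a2 and Col1a1 ranged over 118.7 to 2404 and 100.6 to 3363 RPKM. Both chains were measured in the same tumours, so overlap of these ranges does not decide whether they differ. Their order depends on the length used: per kilobase of all annotated exons, Col1a1 ranked first and Col3a1 second. Below these came Col6a3 (89.4 RPKM), Col5a1 (82.4 RPKM), Col18a1 (59.1 RPKM), whose C-terminal fragment is endostatin, and Col16a1 (49.3 RPKM).

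**Figure D1:**
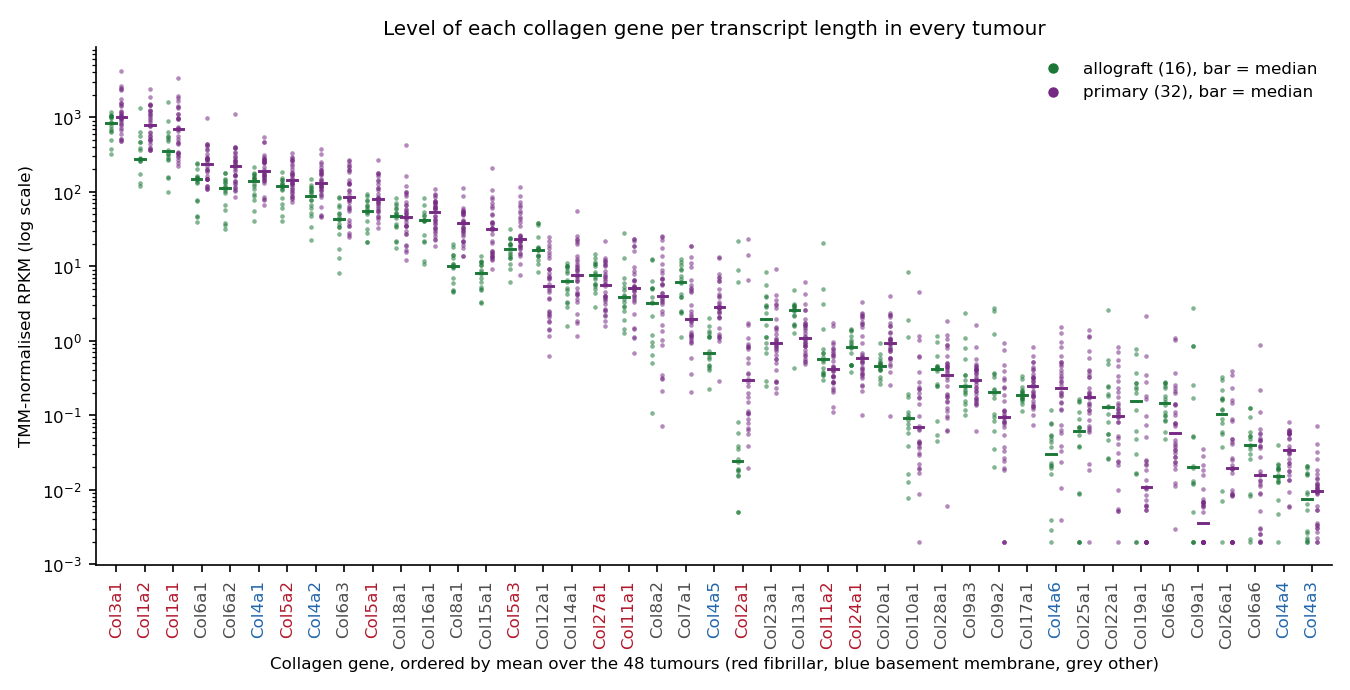
Level of each of the 43 collagen genes in every tumour, as RPKM after TMM scaling on a log axis, ordered by the mean over 48 tumours; points are tumours, bars are medians of the 16 allografts and 32 primary tumours, and values under 0.002 RPKM are drawn at 0.002. Col3a1, Col1a2 and Col1a1 lie highest, and Col4a4 and Col4a3 have the lowest means.

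The other end of the family was close to silent. Col4a3 averaged 0.0114 RPKM and Col4a4 0.0299 RPKM, the chains that join Col4a5 in the glomerular basement membrane, and neither exceeded 1 CPM in any tumour. Col9a1, a cartilage FACIT chain, exceeded 1 CPM in 3 tumours and had a count of 0 in 19. Col26a1 exceeded 1 CPM in 1 tumour, Col6a6 in 4 and Col25a1 in 7. Col4a3 was too low for any of the tests; Col4a4 was also left untested in allografts, Col9a1 and Col26a1 in primary tumours, and Col9a1 and Col19a1 at baseline. Members with low levels are named here and below outside the 12 abundant chains that are given whatever they show (Col1a1, Col1a2, Col3a1, Col5a1, Col5a2, Col4a1, Col4a2, Col6a1, Col6a2, Col6a3, Col12a1 and Col18a1), and those below 5 CPM were chosen after their values were seen.

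The comparison of tumour kinds asks whether tumours that arose in place and tumours grown from the injected line differ in collagen transcripts. Every allograft came from that single line. In all comparisons of tumour kinds, the SEs and p values therefore reflect spread between grafts of that line and between primary tumours. Spread between lines was not measured, so these values cannot speak for allografts of other lines. At 0 Gy with isotype, 6 of the 40 members tested were higher in the primary tumours and none lower, at an adjusted p under 0.05 (edgeR quasi-likelihood test, Benjamini-Hochberg over all genes), against 10% of all genes tested (6.03% higher and 3.99% lower). The median log2 difference was 0.73 over the members and 0.01 over all genes. The 6 were Col1a2 (type I), Col4a2 and Col4a5 (type IV), Col6a3 (type VI), the short-chain collagen Col8a1 and the multiplexin Col15a1. The first digit of the tumour number was shared by all these allografts, and all these primary tumours had another. Here the digit cannot be told apart from tumour kind, and over all treatments most tumours followed this split.

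Col1a2 stood at 1474, 1499, 2493 and 1369.5 CPM in the 4 allografts and at 1965 to 7879.7 CPM (median 5642) in the 8 primary tumours. All but 1 of the primary tumours lay above every allograft, and the difference was 1.67 ± 0.38 (SE), adjusted p = 0.0162 on the log2 scale. Col8a1, a network chain of vessel walls and other matrices, stood at 24.3, 48.2, 93.4 and 50.8 CPM in the allografts and at 147 to 567 CPM (median 181) in the primary tumours. The groups did not overlap, with a difference of 2.14 ± 0.45 (SE), adjusted p = 0.0111. Col15a1, a chain of the basement membrane zone of muscle and capillaries, stood at 26.9, 45.9, 71.8 and 31.9 CPM and at 78.0 to 367 CPM (median 185). Here too every primary tumour exceeded every allograft, by 2.13 ± 0.41 (SE), adjusted p = 0.00693. Col4a5 stood at 7.25, 8.80, 10.2 and 7.40 CPM in the allografts and at 13.7 to 47.0 CPM (median 29.9) in the primary tumours. These groups also stood apart, by 1.91 ± 0.32 (SE), adjusted p = 0.00326.

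Col6a3, the large chain of type VI filaments, stood at 606, 409, 393 and 448 CPM in the allografts and at 573 to 2366 CPM (median 1465) in the primary tumours, with 7 of the 8 above all allografts. The difference was 1.63 ± 0.37 (SE), adjusted p = 0.0167. Col4a2 stood at 611, 423, 635 and 386 CPM and at 665 to 1611 CPM (median 1059), without overlap, and differed by 1.03 ± 0.27 (SE), adjusted p = 0.0288. The fibrillar partners did not pass the edgeR test in this comparison: the log2 difference was 1.33 ± 0.49 for Col1a1 (adjusted p = 0.105), 0.65 ± 0.29 for Col3a1 (adjusted p = 0.176), 1.21 ± 0.42 for Col5a1 (adjusted p = 0.0863) and 0.71 ± 0.37 for Col5a2 (adjusted p = 0.244). Col4a1, the partner of Col4a2, differed by 0.84 ± 0.25 (SE), adjusted p = 0.0531. Col6a1 differed by 0.75 ± 0.35 (adjusted p = 0.191), Col6a2 by 0.94 ± 0.33 (adjusted p = 0.0905), Col12a1 by -1.01 ± 0.76 (adjusted p = 0.431) and Col18a1 by 0.59 ± 0.54 (adjusted p = 0.523). Col4a5, Col8a1 and Col15a1 passed in each of 12 fits that left out 1 tumour. The Col1a2 call was lost without allograft replicate 1, 2 or 4 (highest adjusted p 0.0642). The Col4a2 call was lost without allograft replicate 1, 2 or 4 or primary replicate 2 (highest 0.103). The Col6a3 call was lost without allograft replicate 2, 3 or 4 (highest 0.0663). Without allograft replicate 2 or 4 the count of members called was 3, against 4.13% and 4.6% of all genes, and without primary replicate 4 it was 12, against 12.7%. DESeq2 called 13, against 16.5% of all genes, among them Col1a1 (adjusted p = 0.0256), Col4a1 (0.0113), Col5a1 (0.0219) and Col6a2 (0.0305). With all 8 groups in 1 fit, Col4a2 (adjusted p = 0.111) and Col6a3 did not pass, and Col6a3 also did not pass without the allograft with Col2a1 above 10 CPM. In the same comparison 4 of 6 T cell markers, 2 of 5 neutrophil markers and 1 of 6 pan-leukocyte markers were lower in primary tumours, and 2 of 8 mesenchymal and 2 of 8 pericyte and smooth muscle markers were higher. The bone marker Ibsp was called lower too (-5.76 ± 1.61 (SE), adjusted p = 0.0399), but it was too low to be tested within the primary tumours. The part of these in the collagen differences was not tested.

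Over all 4 treatments, 18 of 42 members tested were higher in primary tumours and 5 lower, against 34.8% of all 19327 genes tested (19.1% higher and 15.7% lower). By class, 6 of 11 fibrillar genes were higher and 1 lower, 5 of 5 tested type IV genes were higher (Col4a4 tested only through the primary tumours), and 7 of 26 other genes were higher and 4 lower. The median log2 difference was 0.51 over the members and 0.00 over all genes. This comparison includes the tumours of the baseline comparison, so the results are not independent of each other. The limit set by the single allograft line holds here too.

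The 6 fibrillar genes that were higher encode the type I, III and V chains. The log2 difference was 0.90 ± 0.33 (SE), adjusted p = 0.0285 for Col1a1, with means of 5103 CPM in primary tumours and 2778 CPM in allografts. For Col1a2 it was 1.24 ± 0.26 (SE), adjusted p = 0.000233, with means of 4836 and 2085 CPM. Col3a1 differed by 0.65 ± 0.23 (adjusted p = 0.0217), Col5a1 by 0.78 ± 0.21 (adjusted p = 0.00323), Col5a2 by 0.59 ± 0.18 (adjusted p = 0.0112) and Col5a3, another chain of type V, by 0.90 ± 0.24 (adjusted p = 0.00337). The call for Col1a1 was lost in 6 of 16 fits that each left out 1 allograft.

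The type IV genes ranged widely. Col4a1 and Col4a2, the pair found in nearly all basement membranes, differed by 0.76 ± 0.20 (adjusted p = 0.00286) and 0.82 ± 0.21 (adjusted p = 0.00212). Col4a5 differed by 2.18 ± 0.30 (SE), adjusted p = 1.92e-07, 4.54-fold, and 24 of 32 primary tumours exceeded all 16 allografts. Col4a6, which pairs with it in smooth muscle and other basement membranes, differed by 3.36 ± 0.52 (SE), adjusted p = 2.11e-06, with means of 2.29 and 0.257 CPM. Col4a4 had means of 0.371 and 0.164 CPM (1.11 ± 0.27 (SE), adjusted p = 0.000981), but 21 primary tumours and 1 allograft reached the low-count cutoff, so it was tested only through the primary tumours and its call is no support for a difference.

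Among the other types, the 3 abundant type VI chains were higher in primary tumours, by 1.03 ± 0.24 for Col6a1 (adjusted p = 0.000733), 1.31 ± 0.25 for Col6a2 (adjusted p = 6.46e-05) and 1.35 ± 0.29 for Col6a3 (adjusted p = 0.000262). Col8a1 was 3.82-fold higher (1.93 ± 0.23 (SE), adjusted p = 9.24e-09), with 28 of 32 primary tumours above every allograft. Col15a1 was 4.91-fold higher (2.30 ± 0.32 (SE), adjusted p = 4.1e-07), with 27 of 32 above every allograft. Col20a1, a FACIT, was higher by 1.21 ± 0.26 (SE), adjusted p = 0.000349, at means of 5.69 and 2.41 CPM. Col25a1, a membrane-spanning chain, was higher by 2.29 ± 0.54 (SE), adjusted p = 0.000828 at means under 1 CPM. Col18a1, the other multiplexin, did not pass, at 0.35 ± 0.28 (SE), adjusted p = 0.353, with a 95% interval from -0.21 to 0.91.

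Col12a1, a FACIT of fibrils under mechanical load, went the other way. It stood at 190.5, 160.2, 206 and 140.4 CPM in the 0 Gy isotype allografts and at 7.198 to 255 CPM (median 47.3) in the matching primary tumours. Over all treatments the means were 225 CPM in allografts and 85.6 CPM in primary tumours, and 22 of 32 primary tumours lay below every allograft. The difference was -1.47 ± 0.31 (SE), adjusted p = 0.000272. Lower in primary tumours were also Col13a1, a membrane-spanning chain of muscle and nerve contacts (-0.70 ± 0.25 (SE), adjusted p = 0.0244), and the fibrillar chain Col11a2 (-1.74 ± 0.36 (SE), adjusted p = 0.000189). The FACIT chain Col9a2 was lower too (-1.78 ± 0.50 (SE), adjusted p = 0.00501). The last of the 5, Col9a1, was at 0.135 CPM or less in every primary tumour and passed the filter on low counts only through the allografts, so its call is no support for a difference; 3 allografts held 3.22, 10.5 and 3.29 CPM and the others under 1 CPM. Without these 3 allografts, which also held Col2a1 above 10 CPM, Col9a1 was too low to be tested and Col9a2, Col11a2 and Col13a1 did not pass. Leaving out 1 allograft ended the Col9a2 call in 2 of 16 fits (highest adjusted p 0.0993) and the Col13a1 call in 3 of 16 (highest 0.057), and DESeq2 gave no adjusted p for Col11a2. Pan-leukocyte markers moved with tumour kind as well: 5 of 6 were lower in primary tumours, with group medians of the summed level of 800 to 1547 CPM there and of 975 to 2877 CPM in allografts. T cell markers were lower in primary tumours for 5 of 6 genes, with group medians of the summed level of 20.4 to 38.2 CPM against 63.0 to 125.2 CPM in allografts, and 1 of 6 neutrophil markers was lower. Of 6 bone markers 3 were called lower (Bglap, Sp7 and Ibsp), but none of these reached the filter on low counts in the primary tumours alone. Mesenchymal markers were higher in primary tumours for 5 of 8 genes and lower for 1. The part of these lists in the collagen differences was not tested.

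**Figure D2:**
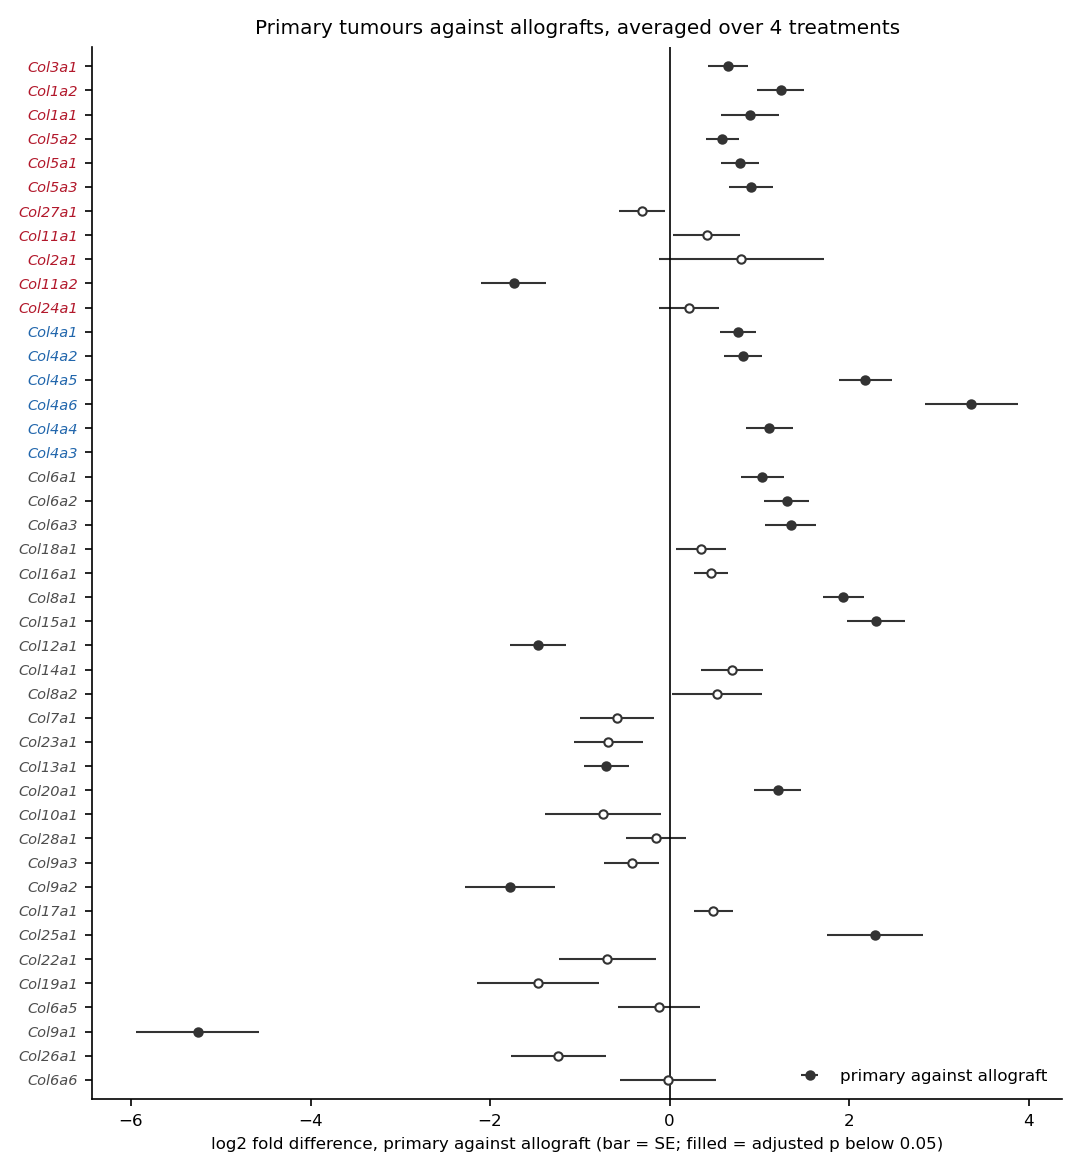
Log2 difference between primary tumours and allografts for each member tested, averaged over the 4 treatments; bars are 1 standard error and filled points passed the test. Col4a5, Col4a6, Col8a1 and Col15a1 lie to the right, and Col12a1, Col11a2, Col9a2 and Col9a1 to the left.

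Next, 20 Gy was compared with 0 Gy within the allografts. With isotype, 1 of 41 members tested passed, against 5.14% of all genes (4.4% higher and 0.744% lower), and the median log2 change was 0.12 over the members and -0.00 over all genes. With anti-PD-1, 1 of 41 passed, against 3.96% of all genes (3.13% higher and 0.828% lower), with a median of -0.51 against 0.02. Averaged over both antibodies, 3 of 41 passed, against 13.7% of all genes (9.56% higher and 4.14% lower), and the median was -0.25 against -0.01. The averaged comparison uses the same tumours as the other 2 and is not independent of them. A share of members called below the background is not a result about the family, and the calls rest on single genes.

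Col4a5, a type IV chain of specialised basement membranes, stood at 7.25, 8.80, 10.2 and 7.40 CPM in the 4 allografts with 0 Gy and isotype and at 4.29, 13.2, 8.34 and 7.58 CPM in the 4 with 0 Gy and anti-PD-1. After 20 Gy it stood at 2.65, 4.82, 3.07 and 3.95 CPM with isotype and at 2.81, 3.67, 1.46 and 3.00 CPM with anti-PD-1. All 4 irradiated tumours lay below all 4 controls within each antibody. Averaged over antibodies it fell (-1.398 ± 0.24 (SE), adjusted p = 0.00127), and this call held in each of 16 fits that left out 1 allograft. With anti-PD-1 the change was -1.61 ± 0.34 (SE), adjusted p = 0.0194, and it did not pass without replicate 2 of the 0 Gy or replicate 3 of the 20 Gy anti-PD-1 group (highest adjusted p 0.0658). With isotype it was -1.19 ± 0.34 (SE), adjusted p = 0.0578.

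Its neighbour Col4a6 was much lower. It stood at 0.525, 0.367, 0.315 and 0.291 CPM with 0 Gy and isotype, 0.140, 0.786, 0.507 and 0.355 with 0 Gy and anti-PD-1, 0.0195, 0.247, 0.110 and 0.152 with 20 Gy and isotype, and 0.0260, 0.145, 0 and 0.131 with 20 Gy and anti-PD-1. The 0 Gy and 20 Gy tumours overlapped only through the lowest of the 0 Gy anti-PD-1 group. Averaged over antibodies the log2 change was -2.002 ± 0.53 (SE), adjusted p = 0.0202, a call lost with all 8 groups in 1 fit and without the 3 allografts with Col2a1 above 10 CPM (highest adjusted p 0.119). It passed the low-count filter through the 0 Gy tumours, 7 of 8 over the cutoff of 0.24 CPM against 1 of 8 after 20 Gy, so the call is no support for a fall. Col6a5, a minor type VI chain, rose from 0.930, 0.550, 0.811 and 0.897 CPM to 2.57, 2.54, 2.30 and 2.53 CPM after 20 Gy with isotype, with no overlap. With anti-PD-1 it stood at 0.441, 1.04, 1.27 and 1.70 CPM at 0 Gy and at 1.56, 0.773, 1.41 and 2.19 CPM after 20 Gy, and these groups overlapped. With isotype the change was 1.66 ± 0.38 (SE), adjusted p = 0.0221, and averaged over antibodies it was 1.05 ± 0.27 (SE), adjusted p = 0.0166. The averaged call was lost under the same 2 settings as that of Col4a6 (highest adjusted p 0.505). The isotype call was lost without replicate 1, 2 or 4 of the 0 Gy group or replicate 4 of the 20 Gy group. It was also lost under those 2 settings and with the first digit of the tumour number as covariate (highest adjusted p 0.614). Most of these irradiated tumours had another first digit than their controls.

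The abundant chains did not pass in the allografts. Averaged over antibodies, the log2 change was 0.17 ± 0.50 for Col1a1 (95% interval -0.89 to 1.23), 0.08 ± 0.44 for Col1a2 (-0.85 to 1.01), -0.33 ± 0.27 for Col3a1 (-0.89 to 0.24), -0.27 ± 0.32 for Col5a1 (-0.96 to 0.42) and -0.35 ± 0.29 for Col5a2 (-0.96 to 0.26). For the other type IV chains it was 0.00 ± 0.30 for Col4a1 (-0.64 to 0.65) and 0.03 ± 0.34 for Col4a2 (-0.68 to 0.74). For the type VI chains the estimates were -0.80 ± 0.33 (SE), adjusted p = 0.134 for Col6a1, -0.85 ± 0.32 (SE), adjusted p = 0.0964 for Col6a2 and -0.63 ± 0.39 (SE), adjusted p = 0.337 for Col6a3. Without replicate 4 of the 20 Gy anti-PD-1 group, 6 members passed, against 14.9% of all genes, adding Col6a1 (-1.09, adjusted p = 0.0253), Col6a2 (-1.10, adjusted p = 0.0214) and Col16a1 (-1.03, adjusted p = 0.028). DESeq2 called 4 members, against 18.4% of all genes, among them Col6a2 (adjusted p = 0.029). The estimate was 0.49 ± 0.30 (SE), adjusted p = 0.341 for Col12a1 and 0.07 ± 0.32 (SE), adjusted p = 0.921 for Col18a1. All 6 pan-leukocyte markers rose after 20 Gy averaged over antibodies, and the median of their summed level went from 975 and 1379 CPM in the 0 Gy groups to 2425 and 2877 CPM in the 20 Gy groups. Among the other lists, 6 of 10 macrophage, 2 of 9 endothelial and 1 of 6 neutrophil markers rose and 1 of 8 pericyte and smooth muscle markers fell. Of the 6 proliferation markers 3 fell (Ccnb1, Bub1 and Aurkb), and the median of the summed level went from 699 and 687 CPM to 547 and 438 CPM. The part of these lists in the lower Col4a5 and Col4a6 levels was not tested.

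Against 0 Gy with isotype, the allografts given both 20 Gy and anti-PD-1 had 1 of 41 members called, against 9.66% of all genes (7.43% higher and 2.23% lower), and a median log2 change of -0.39. This was Col4a5 (-1.62 ± 0.34 (SE), adjusted p = 0.00837). The call was lost with all 8 groups in 1 fit. Col6a2 did not pass (-1.16 ± 0.45 (SE), adjusted p = 0.126). All 6 pan-leukocyte markers and 6 of 10 macrophage markers rose here and 3 of 6 proliferation markers fell, and their part in the Col4a5 value was not tested. This comparison shares its control tumours with the isotype comparison and its treated tumours with the anti-PD-1 comparison.

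In the primary tumours, 20 Gy with isotype called 2 of 40 members tested, both lower, against 14.5% of all genes (7.85% higher and 6.64% lower). The median log2 change was -0.49 over the members and -0.02 over all genes, and 29 of 40 estimates were negative, against 51.8% of all genes. These estimates come from the same tumours, so their signs are not independent. With anti-PD-1, no member was called, against 7.92% of all genes (6.06% higher and 1.86% lower), with a median of 0.07. In that comparison 9 of 40 members had an unadjusted p under 0.05, against 23.6% of all genes, and DESeq2 called 5, against 12.3% of all genes (Col4a5, Col8a2, Col9a3, Col19a1 and Col28a1). Averaged over antibodies, 9 of 40 passed, 4 higher and 5 lower, against 26.3% of all genes (14.6% higher and 11.7% lower), and the median was -0.20 against -0.00. Again the averaged comparison reuses the tumours of the other 2.

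Of the members with a mean of at least 5 CPM, Col16a1 and Col4a5 fell. Col16a1, a FACIT of fibrils and microfibrils, stood at 219.8 to 491 CPM (median 356) with 0 Gy and isotype and at 146 to 569 CPM (median 337) with 0 Gy and anti-PD-1. After 20 Gy it stood at 98.02 to 394 CPM (median 197) with isotype and at 120.7 to 476 CPM (median 173) with anti-PD-1. Both irradiated groups overlapped their controls, and 4 of 16 irradiated tumours lay below all 16 controls. The averaged change was -0.64 ± 0.20 (SE), adjusted p = 0.0211, and it passed in each of 32 fits that left out 1 tumour but not without the 2 tumours richest in muscle markers (adjusted p = 0.0599). Col4a5 stood at 13.7 to 47.0 CPM (median 29.9) and 9.76 to 86.1 CPM (median 22.9) in the 0 Gy groups and at 1.90 to 83.2 CPM (median 13.0) and 6.40 to 18.3 CPM (median 14.6) after 20 Gy, in each case with isotype first. The top isotype tumour after 20 Gy, replicate 8, lay above every isotype control while 6 of 16 irradiated tumours lay below all 16 controls. The averaged change was -0.98 ± 0.35 (SE), adjusted p = 0.036, and it did not pass in 10 of 32 fits that left out 1 tumour (highest adjusted p 0.0788) nor without the 2 muscle-rich tumours (0.0617). Without replicate 8 of the 20 Gy isotype group, the isotype comparison called 1 member, Col4a5, against 17.3% of all genes (-1.42, adjusted p = 0.0185).

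The other 7 members called were low. Col28a1, a chain found near peripheral nerve, stood at 0.259 to 1.92 CPM (median 0.583) and 0.0260 to 2.11 CPM (median 1.17) at 0 Gy and at 0.664 to 4.51 CPM (median 1.93) and 0.739 to 7.86 CPM (median 3.53) after 20 Gy, isotype first. Of its irradiated tumours, 8 of 16 exceeded all controls, and the change was 1.58 ± 0.39 (SE), adjusted p = 0.00315. Col9a3, a cartilage FACIT chain, changed by 1.06 ± 0.28 (SE), adjusted p = 0.00524 and Col11a2 by 1.01 ± 0.28 (SE), adjusted p = 0.0089. The Col11a2 call was lost with all 8 groups in 1 fit (adjusted p = 0.0811). Col19a1, a FACIT of muscle and basement membrane zones, changed by 3.04 ± 0.91 (SE), adjusted p = 0.0139. Its level followed single tumours, reaching 9.17 CPM in the most muscle-rich tumour, and it did not pass with the muscle score as a covariate (adjusted p = 0.706) nor without that tumour (adjusted p = 0.0688). Col19a1 reached the low-count filter mainly through the irradiated tumours, so its call is no support for a rise. Col4a4 (-0.76 ± 0.28 (SE), adjusted p = 0.0452), Col9a2 (-1.55 ± 0.56 (SE), adjusted p = 0.04) and Col10a1 (-2.42 ± 0.72 (SE), adjusted p = 0.0129) were lower at means under 2 CPM. Col9a2 and Col10a1 reached the low-count filter through the 0 Gy tumours alone, which makes their calls no support for a fall. Leaving out 1 tumour ended the Col4a4 call in 21 of 32 fits (highest adjusted p 0.0825) and the Col9a2 call in 18 of 32 (highest 0.147). The Col4a4 call was also lost with DESeq2 size factors and without a filter, and the Col9a2 call without a filter, with all 8 groups in 1 fit and without the 2 muscle-rich tumours. The Col10a1 call was lost without replicate 8 of the 0 Gy isotype group (adjusted p = 0.087), which held 13.98 CPM. Within isotype alone, the 2 calls were Col4a4 (-1.26 ± 0.40 (SE), adjusted p = 0.0332) and Col10a1 (-3.25 ± 1.05 (SE), adjusted p = 0.0347). Leaving out 1 tumour ended the first in 10 of 32 fits (highest adjusted p 0.0794) and the second in 7 of 32 (highest 0.363), and neither passed without a filter on low counts. Col4a4 also did not pass with the 2 groups alone.

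The 12 chains given whatever they show were not called by 20 Gy in primary tumours. Averaged over antibodies, the log2 change was -0.33 ± 0.36 for Col1a1 (95% interval -1.06 to 0.40), -0.44 ± 0.27 for Col1a2 (-0.98 to 0.11), -0.21 ± 0.28 for Col3a1 (-0.77 to 0.36), -0.58 ± 0.24 for Col5a1 (-1.06 to -0.10) and -0.36 ± 0.21 for Col5a2 (-0.79 to 0.07). It was -0.27 ± 0.23 for Col4a1 (-0.74 to 0.19), -0.36 ± 0.23 for Col4a2 (-0.83 to 0.10), -0.17 ± 0.27 for Col6a1 (-0.72 to 0.38) and -0.13 ± 0.29 for Col6a2 (-0.71 to 0.45). Col5a1 passed with the first digit of the tumour number as covariate, averaged (adjusted p = 0.0495) and with isotype (adjusted p = 0.0461). Col6a3 missed the threshold with -0.83 ± 0.32 (SE), adjusted p = 0.0532, and it passed under 4 of the alternatives, with adjusted p values of 0.0375 to 0.0487. The estimate was 0.64 ± 0.42 (SE), adjusted p = 0.271 for Col12a1 and 0.03 ± 0.34 (SE), adjusted p = 0.963 for Col18a1. Primary replicate 8 with 20 Gy and anti-PD-1 held the highest level of Col1a1, Col1a2, Col6a1, Col6a2 and Col18a1. Without it, 14 of 40 members passed in the averaged comparison, against 25% of all genes, adding Col1a2 (-0.68, adjusted p = 0.0319), Col5a1 (-0.65, adjusted p = 0.0424), Col6a3 (-1.12, adjusted p = 0.0043), Col8a2 (-1.63, adjusted p = 0.0348) and Col11a1 (-1.15, adjusted p = 0.0379).

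**Figure D3:**
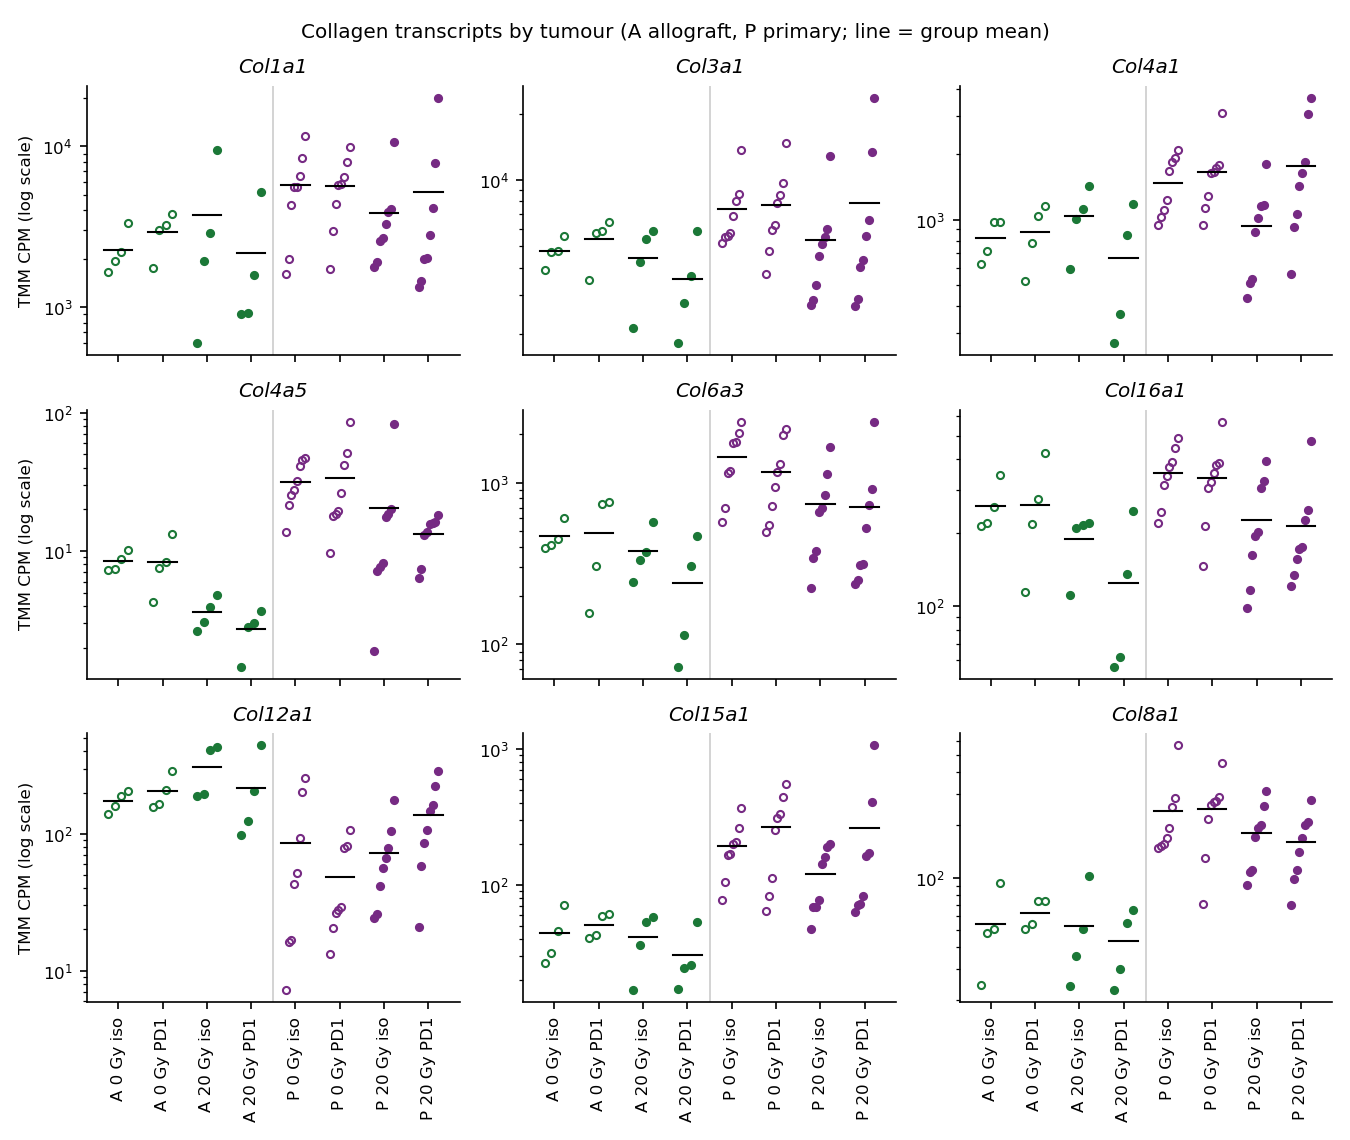
TMM-scaled CPM of 9 collagen genes in every tumour on a log axis, by group; open points are 0 Gy, filled points are 20 Gy, and lines are group means. Col4a5 is lower in all 20 Gy allografts than in their own 0 Gy controls, and 1 primary tumour given 20 Gy and anti-PD-1 reaches 19939.9 CPM for Col1a1.

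Markers of other cells moved with dose in the primary tumours too. Averaged over antibodies, 8 of 14 muscle markers rose, all 6 pan-leukocyte markers rose, and all 6 proliferation markers fell. Of the 5 neutrophil markers tested 3 rose, Csf3r (1.85 ± 0.31 (SE), adjusted p = 4.11e-05), Cxcr2 (2.52 ± 0.76 (SE), adjusted p = 0.0145) and Retnlg (2.39 ± 0.69 (SE), adjusted p = 0.0109), and the summed level of the list had medians of 28.0 and 30.8 CPM at 0 Gy and of 125.8 and 235.6 CPM after 20 Gy. Of 10 macrophage markers 6 rose. Of the 5 Schwann cell markers tested, Sox10 was called higher (1.83 ± 0.62 (SE), adjusted p = 0.0275), and the summed level of the list had medians of 18.8 and 17.9 CPM at 0 Gy and of 24.8 and 19.9 CPM after 20 Gy. Of the 8 mesenchymal markers, 1 fell and none rose, and the median of their summed level was 6337 and 6252 CPM at 0 Gy against 3531 and 4184 CPM after 20 Gy. The part of these in the collagen changes was not tested.

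Primary tumours given both 20 Gy and anti-PD-1 were also set against 0 Gy with isotype. They had 2 of 40 members called, both higher, against 13.8% of all genes (8.78% higher and 4.98% lower), with a median log2 change of 0.19. These were Col28a1 (2.22 ± 0.56 (SE), adjusted p = 0.00801) and Col19a1 (3.96 ± 1.33 (SE), adjusted p = 0.0442). Col19a1 reached the low-count filter mainly through irradiated tumours, so its call is no support for a rise. The Col19a1 call was lost with the muscle score as a covariate (adjusted p = 0.692), without a filter on low counts, and in 10 of 32 fits that left out 1 tumour, among them replicates 3, 4 and 8 of the treated group and all 0 Gy isotype tumours but replicate 7. Without primary replicate 8 of the treated group, the comparison called 5, against 12.3% of all genes, losing Col19a1 and adding Col6a3 (-1.60, adjusted p = 0.0108), Col16a1 (-0.98, adjusted p = 0.0167), Col8a2 (-2.64, adjusted p = 0.0411) and Col9a2. The Col9a2 call is no support for a fall, since 7 of 8 control tumours and 1 of 7 treated tumours reached the low-count cutoff. In this comparison 5 of 6 pan-leukocyte, 3 of 10 macrophage and 3 of 5 neutrophil markers rose and 4 of 6 proliferation markers fell, and their part in the collagen values was not tested.

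**Figure D4:**
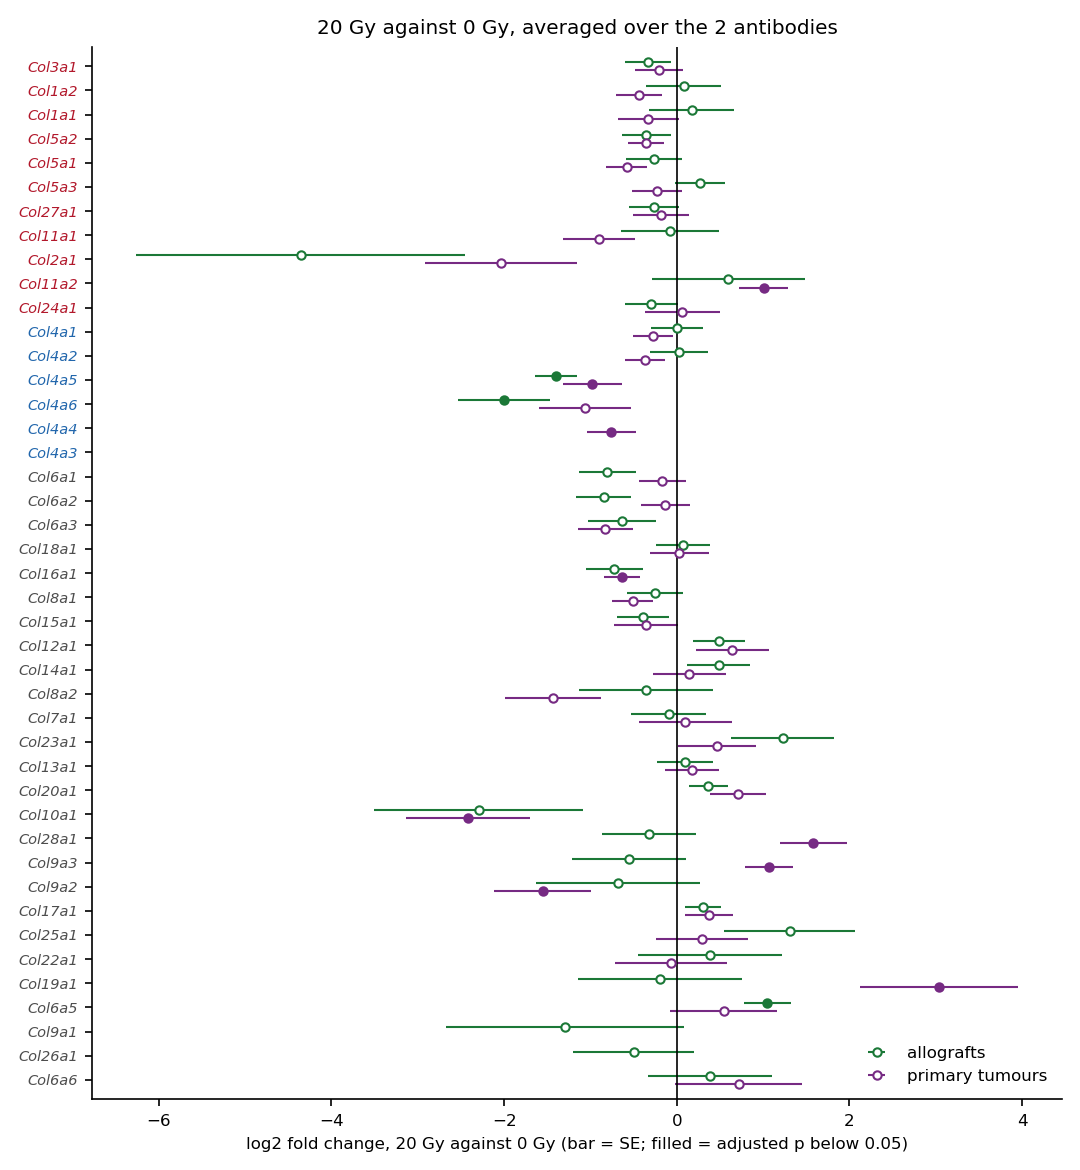
Log2 change with 20 Gy, averaged over antibodies, for each member tested in allografts and in primary tumours; bars are 1 standard error and filled points passed the test. Col4a5 is filled on the left in both kinds of tumour, and the type I, III and V chains have open points in both.

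The anti-PD-1 antibody was compared with isotype at each dose. No member was called in either kind of tumour at either dose, against 0% of all genes by edgeR. DESeq2 called no member either, against 0% of all genes at both doses in allografts and 0.0169% at 0 Gy and 0.0281% at 20 Gy in primary tumours. At an unadjusted p under 0.05, edgeR gave 0 members at 0 Gy in allografts and in primary tumours, 1 at 20 Gy in allografts and 6 at 20 Gy in primary tumours. The shares of all genes at that threshold were 1.68% and 2.32% at 0 Gy and 3.84% and 8.12% at 20 Gy, with allografts first. In allografts at 20 Gy the median log2 difference was -0.57 over the members and -0.02 over all genes. All 11 fibrillar estimates were negative, against 52.3% of all genes, and none passed. The estimates come from the same tumours, in which fibrillar chains move together, so the 11 signs are not independent. For Col1a1 the difference there was -0.80 ± 0.71 (95% interval -2.30 to 0.71). In primary tumours at 20 Gy the median was 0.44 over the members and 0.02 over all genes.

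The largest of those 6 differences by p was that of Col18a1. It stood at 75.3 to 258 CPM (median 154) with isotype and at 165 to 2016 CPM (median 299.9) with anti-PD-1, and 5 of 8 tumours with anti-PD-1 exceeded all isotype tumours. The difference was 1.76 ± 0.50 (unadjusted p = 0.00129, adjusted p = 0.549 by edgeR). Col4a1 stood at 434 to 1797 CPM (median 948) and 562 to 3627 CPM (median 1533), and differed by 0.92 ± 0.32 (adjusted p = 0.584). Col4a2 differed by 0.80 ± 0.33 (adjusted p = 0.596), Col5a3 by 1.28 ± 0.42 (adjusted p = 0.56) and Col15a1 by 1.14 ± 0.53 (adjusted p = 0.603). None of them passed over all genes.

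The interaction of dose with antibody called no member in allografts or in primary tumours, against 0% of all genes, with 2 and 4 members at an unadjusted p under 0.05 (1.52% and 4.25% of all genes). DESeq2 called none, against 0% and 0.00563% of all genes. For Col18a1 in primary tumours the interaction was 2.04 ± 0.69 (95% interval 0.63 to 3.44, adjusted p = 0.971). The effect of dose was compared between tumour kinds in 1 fit of all 8 groups, and no member was called under isotype, under anti-PD-1, averaged or for the combination, against 0.00517%, 0%, 0.0259% and 0% of all genes. The unadjusted counts were 2, 1, 3 and 0 of 42 (9.9%, 4.77%, 8.56% and 6.41% of all genes), and DESeq2 called none, against 0.0207%, 0.0155%, 0.357% and 0.0207%. For Col4a5 the difference in the averaged dose effect was 0.43 ± 0.53 (95% interval -0.65 to 1.4999), and for Col1a1 it was -0.47 ± 0.63 (-1.74 to 0.79).

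Genes that fold, cut, cross-link or bind collagen were counted in the same fits. The share of all genes called was 34.8% for tumour kind and, for 20 Gy averaged over antibodies, 26.3% in primary tumours and 13.7% in allografts; counts at or below these shares are no result about a list. Of 20 folding and modification enzymes, 9 were higher and 1 lower in primary tumours than in allografts over all treatments. The prolyl hydroxylase subunits P4ha3 (1.93 ± 0.24 (SE), adjusted p = 3.18e-08) and P4hb (0.33 ± 0.09 (SE), adjusted p = 0.00331) and the export receptor Mia3 (0.32 ± 0.09 (SE), adjusted p = 0.00373) were higher, and P3h4, a partner of lysyl hydroxylation, was lower (-0.38 ± 0.10 (SE), adjusted p = 0.00276). After 20 Gy averaged over antibodies, 7 of 20 fell and 1 rose in primary tumours. The foldase Fkbp10 changed by -0.66 ± 0.13 (SE), adjusted p = 0.000446, P3h4 by -0.51 ± 0.11 (SE), adjusted p = 0.00134 and Serpinh1 by -0.53 ± 0.17 (SE), adjusted p = 0.0185, and Tmem38b, an ion channel of the endoplasmic reticulum, rose (1.04 ± 0.23 (SE), adjusted p = 0.00116). In allografts 3 of 20 fell: Fkbp14 (-0.58 ± 0.13 (SE), adjusted p = 0.00847), the lysyl hydroxylase Plod2 (-0.63 ± 0.19 (SE), adjusted p = 0.0388) and P4hb (-0.39 ± 0.12 (SE), adjusted p = 0.0437).

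Of the propeptide proteases and cross-linking oxidases, 7 of 13 tested were higher in primary tumours and 1 lower. Loxl3 (1.77 ± 0.21 (SE), adjusted p = 1.67e-08), the procollagen N-proteinase Adamts2 (2.46 ± 0.32 (SE), adjusted p = 8.97e-08) and Loxl1 (0.84 ± 0.13 (SE), adjusted p = 3.06e-06) were higher, and Adamts3 was lower (-0.95 ± 0.26 (SE), adjusted p = 0.00303). After 20 Gy, 2 of 12 fell in primary tumours, Loxl1 (-0.67 ± 0.14 (SE), adjusted p = 0.000891) and Adamts14 (-0.59 ± 0.19 (SE), adjusted p = 0.0254). In allografts 3 of 12 fell: the C-proteinase Tll1 (-1.57 ± 0.30 (SE), adjusted p = 0.00244), Loxl2 (-0.93 ± 0.24 (SE), adjusted p = 0.0177) and Lox (-0.69 ± 0.21 (SE), adjusted p = 0.0399).

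Among 9 collagen receptors tested, Ddr2 was higher in primary tumours (0.65 ± 0.11 (SE), adjusted p = 1.39e-05), as were the uptake receptor Mrc2 (0.89 ± 0.16 (SE), adjusted p = 1.79e-05), Itga10 (1.36 ± 0.33 (SE), adjusted p = 0.00122) and Itgb1. The leukocyte receptor Lair1 was lower (-0.81 ± 0.21 (SE), adjusted p = 0.0025). After 20 Gy in primary tumours 4 fell, among them Ddr2 (-0.57 ± 0.13 (SE), adjusted p = 0.00153), Mrc2 (-0.54 ± 0.15 (SE), adjusted p = 0.0109) and Itgb1 (-0.39 ± 0.11 (SE), adjusted p = 0.0113), and Lair1 rose (0.82 ± 0.28 (SE), adjusted p = 0.0291). In allografts the only receptor called after 20 Gy was Lair1 (1.21 ± 0.23 (SE), adjusted p = 0.00245).

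Of 16 fibril-associated matrix proteins, 8 were higher in primary tumours and 1 lower. The proteoglycans Bgn (1.21 ± 0.16 (SE), adjusted p = 1.07e-07) and Dcn (1.10 ± 0.21 (SE), adjusted p = 4.34e-05) and fibronectin, Fn1 (1.65 ± 0.25 (SE), adjusted p = 1.27e-06), were higher, and Thbs1 was lower (-1.13 ± 0.23 (SE), adjusted p = 0.000173). After 20 Gy the small proteoglycan Aspn fell in primary tumours (-1.18 ± 0.33 (SE), adjusted p = 0.00912), and no gene of this list was called in allografts. Of 15 basement membrane partners of type IV, 7 were higher and 3 lower in primary tumours, with perlecan, Hspg2 (0.99 ± 0.21 (SE), adjusted p = 0.000223), and the laminin chains Lamb1 (0.89 ± 0.20 (SE), adjusted p = 0.000437) and Lamb2 (0.60 ± 0.14 (SE), adjusted p = 0.000781) higher, and Lama1 (-1.83 ± 0.30 (SE), adjusted p = 5.28e-06) and Lamb3 (-0.86 ± 0.22 (SE), adjusted p = 0.00191) among those lower. After 20 Gy in primary tumours, Lamb3 (1.58 ± 0.30 (SE), adjusted p = 0.000274) and Agrn (0.70 ± 0.26 (SE), adjusted p = 0.0455) rose and Pxdn, the peroxidase that cross-links type IV (-0.90 ± 0.18 (SE), adjusted p = 0.000536), Hspg2 (-0.61 ± 0.21 (SE), adjusted p = 0.0333) and Nid2 (-0.58 ± 0.22 (SE), adjusted p = 0.0475) fell. No gene of this list was called in allografts.

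Chains that join in 1 trimer, or share a locus, were followed across tumours within groups. The correlations used log2 CPM with each group's mean removed, over 16 allografts or 32 primary tumours, and permutation p values were adjusted over the 20 relations computed. Tumours also differ in depth and in the cells they hold, which the chains share. Col1a1 and Col1a2 had r = 0.98 and rho = 0.93 in allografts (permutation, adjusted p = 8.89e-05 and 0.000156), and r = 0.94 and rho = 0.93 in primary tumours (permutation, adjusted p = 2.86e-05 for each, the smallest given). Of 14231 genes in allografts and 14364 in primary tumours, none correlated with Col1a1 more closely than Col1a2. The same held for Col4a2 with Col4a1 (r = 0.998 and 0.97) and for Col6a2 with Col6a1 (r = 0.98 and 0.97). Without the 2 tumours farthest from the median of the first chain, r was 0.95 and 0.92 for Col1a1 with Col1a2.

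Other pairs were looser. Col5a2 ranked 8 of 14231 genes for Col5a1 in allografts (r = 0.91) and 1 of 14364 in primary tumours (r = 0.89). Col3a1 ranked 36 for Col1a1 in allografts (r = 0.82) and 2 in primary tumours (r = 0.85). Col6a3 ranked 96 for Col6a1 in allografts (r = 0.87) and 2 in primary tumours (r = 0.80). Col4a6 ranked 13 for Col4a5 in allografts (r = 0.85) and 27 in primary tumours (r = 0.62). Col8a1 with Col8a2 had r = 0.88 and 0.63. Col9a1 with Col9a3 had r = 0.87 in allografts, where 3 tumours held high levels of both, and -0.25 in primary tumours. Col4a3 with Col4a4, both near 0, had r = 0.24 (permutation, adjusted p = 0.367) and 0.49 (adjusted p = 0.00486). The count ratio of Col1a1 to Col1a2 differed by tumour kind as a description: it ran from 0.94 to 1.73 in allografts (median 1.32) and from 0.56 to 1.55 in primary tumours (median 0.97).

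**Figure D5:**
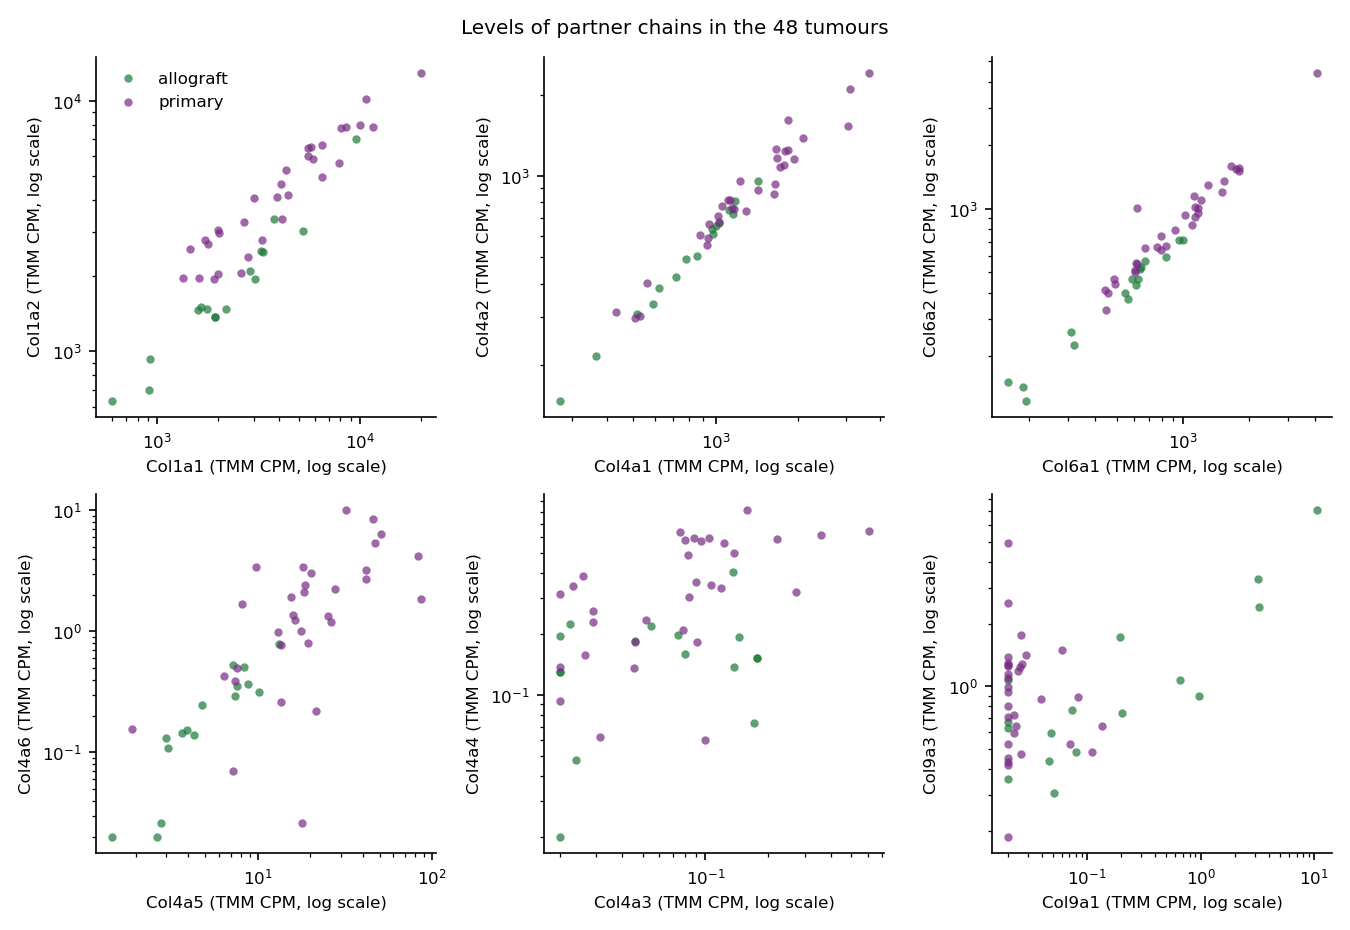
Levels of partner chains against each other in the 48 tumours, as TMM-scaled CPM on log axes; each point is a tumour, and values under 0.02 CPM are drawn at 0.02. Col1a1 with Col1a2, Col4a1 with Col4a2 and Col6a1 with Col6a2 form narrow bands, and the other 3 pairs scatter more widely.

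In allografts, high levels of the cartilage collagens lay in a few tumours. Col2a1, the fibrillar collagen of cartilage, stood at 0.0954, 0.0916, 44.9 and 0.291 CPM in the 0 Gy isotype allografts, 0.0802, 0.411, 112.2 and 0.178 with 0 Gy and anti-PD-1, 0.0779, 0.198, 31.0 and 0.0253 with 20 Gy and isotype and 0.0260, 0.121, 0.0974 and 0.131 with 20 Gy and anti-PD-1. The 3 high values belonged to replicate 3 of the first 3 groups. The same 3 tumours held the highest allograft levels of Col9a1 (3.22, 10.5 and 3.29 CPM), of Col10a1, the hypertrophic cartilage chain (3.53, 26.5 and 5.92 CPM), and of Col11a2 (16.8, 26.8 and 109.9 CPM). Ibsp, a bone matrix protein, stood at 40.3, 224 and 559 CPM in them, at 21.2 CPM in replicate 3 of the 20 Gy anti-PD-1 group, and at 1.64 CPM or less in the other allografts. In primary tumours Col2a1 ranged from 0.198 to 117.2 CPM (median 2.11) at 0 Gy with isotype and from 0.101 to 8.19 CPM (median 0.736) after 20 Gy with anti-PD-1. Sox9, the chondrogenic factor, ran from 17.5 to 100.3 CPM over all 16 allografts and did not single out these 3 tumours.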

How the data were processed

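Gene counts of 48 tumours were analysed. The authors deposited 1 table of whole-number counts per gene, not normalised. Trimmomatic 0.36, STAR, HTSeq and mm10 are named in the submitters' processing notes; the annotation and strand setting are not given in the sources used here. Libraries were poly(A) selected with a stranded kit, per the labels' protocols. Of 36854 identifiers, 36796 were named from GENCODE M21.

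Counts were scaled by TMM and tested with edgeR 4.0.16 (quasi-likelihood F test, filterByExpr) in R 4.3.3, in 4 fits: allografts, primary tumours, the 0 Gy isotype groups, and all 8 groups. P-values were adjusted over all genes tested (Benjamini-Hochberg, threshold 0.05). DESeq2 1.42.0 and other settings were alternatives. All 136 pairs of tumours within groups differed by more than sampling error in a chi-square comparison. Named genes were 12 abundant chains, called members with a mean of at least 5 CPM, and up to 3 called genes per list and direction. The members and lists were chosen with earlier results of these data known. Scripts were tested on simulated data. Of the genes in the pathway lists, 1 is not reported here.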

Additional observations from a re-analysis of the deposited data

Results flagged for a closer look

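A tumour was listed here when its gap to the nearest other tumour of its group took up more of the group's range than Dixon's 95% critical value allows. For independent, normally distributed values chance lists about 1 in 20 groups. The gaps here were taken on CPM without logs, and many of the genes move together in the same tumours. The 33 of 168 checks listed therefore cannot be set against that rate.

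Primary replicate 8 with 20 Gy and anti-PD-1 stood above its group for Col1a1 (19940 CPM, next 7917), Col1a2 (12854 CPM), Col6a1 (4069 CPM, next 1309), Col6a2 (4384 CPM, next 1294), Col6a3 (2373 CPM), Col16a1 (476 CPM), Col18a1 (2016 CPM), Col15a1 (1063 CPM) and the collagen share of counts (7.54%). Primary replicate 2 with 20 Gy and isotype stood above its group for Col1a1 (10698 CPM), Col1a2 (10118 CPM), Col3a1 (12809 CPM), Col5a1 (1173 CPM), Col5a2 (1711 CPM) and the collagen share (4.50%).

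Other irradiated primary tumours were high for Col4a5 (83.2 CPM, isotype replicate 8, next 20.3), Col11a2 (9.45 CPM, isotype replicate 3, and 8.56 CPM, anti-PD-1 replicate 4) and Col20a1 (20.2 CPM, isotype replicate 3). Among primary tumours at 0 Gy, isotype tumours were high for Col3a1 (13700 CPM, replicate 3), Col11a2 (5.19 CPM, replicate 6), Col13a1 (19.3 CPM, replicate 7) and Col8a1 (567 CPM, replicate 8). Replicate 2 with 0 Gy and anti-PD-1 was high for Col4a1 (3106 CPM) and Col4a2 (2105 CPM).

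Among allografts, replicate 4 with 20 Gy and anti-PD-1 was high for Col1a1 (5218 CPM) and Col5a1 (745 CPM). Replicate 3 was high for Col11a2 in the 0 Gy isotype (16.8 CPM), 0 Gy anti-PD-1 (26.8 CPM) and 20 Gy isotype (109.9 CPM) groups, and for Col1a2 in the first of these (2493 CPM). Replicate 1 was high for Col6a1 with 0 Gy and isotype (998 CPM) and low for Col16a1 with 20 Gy and isotype (111.03 CPM).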

How the results depend on the processing

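No paired analysis was possible because replicate numbers follow the order of deposit and link no tumours across groups. No value of a called gene changed direction under any alternative. Member counts moved in these cases, each given with the share of all genes called in the same fit. For 20 Gy in allografts with isotype (1), DESeq2 gave 2 (8.62%), the 2 groups alone 2 (6.19%), and the first digit of the tumour number as covariate (1.1%), all 8 groups in 1 fit (1.92%) and leaving out the 3 allografts with Col2a1 (4.81%) 0 each. With anti-PD-1 (1), DESeq2 gave 2 (9.38%), and all 8 groups (0.595%) and the 2 groups alone (0.0059%) 0. Averaged (3), DESeq2 gave 4 (18.4%). All 8 groups (7.23%) and leaving out those 3 allografts (11.7%) gave 1, and Col4a5 passed in both (adjusted p = 0.0409 and 0.0109). For the allograft combination (1), DESeq2 gave 2 (14.8%) and all 8 groups 0 (4.4%). In primary tumours with isotype (2), DESeq2 gave 5 (17.1%), the digit covariate 4 (15.5%) and no filter 0 (5.83%). With anti-PD-1 (0), DESeq2 gave 5 (12.3%), and the muscle covariate (9.32%) and all 8 groups (11.2%) 1. Averaged (9), leaving out the 2 muscle-rich tumours gave 5 (21.7%). For the primary combination (2), DESeq2 gave 4 (18.6%), and no filter (6.02%) and leaving out those tumours (9.6%) 1. At baseline (6), DESeq2 gave 13 (16.5%). The other settings with all tumours gave 6 or 7 at baseline (4.65% to 10.3%), but Col4a2 and Col6a3 were lost with all 8 groups and Col6a3 without the Col2a1 allografts. For tumour kind over all treatments, Col9a2, Col11a2 and Col13a1 were lost without those allografts, where Col9a1 was not tested, and DESeq2 gave no adjusted p for Col11a2. Leaving out 1 tumour of the fit gave 0 to 2 (1.63% to 7.85%), 0 to 4 (1.02% to 7.05%) and 3 to 6 (10.3% to 14.9%) members for 20 Gy in allografts (isotype, anti-PD-1, averaged), 0 to 4 (9.52% to 17.3%), 0 to 2 (5% to 10.7%) and 5 to 14 (23% to 29.1%) in primary tumours, 1 to 4 (5.08% to 12.8%) and 1 to 5 (9.82% to 18%) for the combinations, 3 to 12 (4.13% to 12.7%) at baseline, and 0 for the antibody comparisons and the interactions of dose with antibody (0%). In the fit of all 8 groups only the 16 allografts were left out in turn, which gave 21 to 25 (31.4% to 34.9%) for tumour kind over all treatments and 0 for its interactions (0% to 0.107%). The settings without the Col2a1 or muscle-rich tumours were chosen after seeing the data, and the cause of these shifts was not tested. With 4 or 8 tumours a group, the spread between tumours, not counting depth, set the precision for abundant chains.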
